A study of Mus musculus with 5 samples.

Results

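The MYC-MAX-MXD network is a family of basic helix-loop-helix leucine zipper transcription factors. Its 10 genes on the array were Myc, Mycn, Mycl, Max, Mxd1, Mxd3, Mxd4, Mxi1, Mnt and Mlx, out of 18193 genes with a probe set annotated to a single symbol. Every probe set annotated to 1 of these symbols alone was taken, which gave 24 probe sets of 34945. All 10 genes passed the filter on low signal, among 10852 genes tested, and 19 of their 24 probe sets passed it.

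The arrays were made from B9 cells, a mouse line of cutaneous squamous cell carcinoma with the HRAS-Q61L genotype, which every group shared. There were 2 arrays of cells given 1 µM vemurafenib (PLX4032), 2 of cells given 1 µM PLX7904 and 1 of cells given DMSO as vehicle, all after 17 h. Vemurafenib inhibits the kinase BRAF and is known to activate MAPK signalling where RAS is mutant, whereas PLX7904 belongs to the so-called paradox breakers, which were designed to avoid that. The labels call the arrays biological replicates of 1 line and say no more about separate cultures, so p-values measure only the spread between these arrays, and the single array of DMSO was given the variance of the treated groups.

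MAX is the shared partner of the network. MYC, MYCN and MYCL bind DNA as dimers with MAX at the E-box CACGTG and raise transcription of genes for ribosome production, metabolism and growth. The MXD proteins (MXD1, MXI1, MXD3 and MXD4) and MNT also pair with MAX, occupy the same E-boxes and recruit SIN3-HDAC corepressors, so that MAX dimers can either raise or lower transcription. MLX is a MAX-like partner that pairs with the glucose-responsive factors MondoA (Mlxip) and ChREBP (Mlxipl), and with some MXD proteins and MNT. In squamous epithelium MYC is linked to proliferating progenitors, and in keratinocytes Mxd1 is known for its rise as cells stop dividing and differentiate.

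The cells carried the markers of their labelled type. All 13 keratinocyte and epithelial markers were past the filter, and their summed signal was 174103 and 173496 on the vemurafenib arrays, 157972 and 154247 on the PLX7904 arrays and 149753 on the DMSO array. With vemurafenib 4 of the 13 were higher and 1, Dsp, lower than with DMSO, and 5 were higher and 1, Krt5, lower than with PLX7904. Of all genes tested, 5.43% were higher and 5.21% lower than with DMSO, and 6.43% and 6.87% than with PLX7904. With all probe sets averaged, Lama3, Krt8 and Dsp did not pass against DMSO. Against PLX7904, that average turned Lama3 from log2 1.12 to -0.17. Median centring ended the calls of Dsp and Krt5. The other marker calls held under both settings. Of 6 fibroblast markers only Pdgfra was past the filter, and the summed signal of the list was 402 and 373 with vemurafenib, 195 and 246 with PLX7904 and 164 with DMSO. Pdgfra was 2.89-fold higher with vemurafenib than with DMSO (limma adjusted p = 0.00327) and 1.81-fold higher than with PLX7904 (adjusted p = 0.0166). Pdgfra made up 264 and 231 of the fibroblast list's signal with vemurafenib. With its 3 probe sets averaged, Pdgfra passed in neither comparison (log2 0.83 and 0.82). With no filter it did not pass against PLX7904. The melanocyte list of 5, of which only Pmel was past the filter, summed to 133 and 155 with vemurafenib, 128 and 173 with PLX7904 and 50.1 with DMSO. Pmel read 85.5 and 82.8 with vemurafenib, 72.2 and 60.8 with PLX7904 and 12.4 with DMSO. It thus reached the filter only through the treated arrays. Pmel was 5.57-fold higher with vemurafenib than with DMSO, a ratio that rests on 1 dim DMSO value. PLX7904 was also above DMSO (log2 2.15, did not pass), and the compounds differed by 0.33, which did not pass. Of 5 immune markers on the array and 4 endothelial markers, 1 each was past the filter, and no marker was listed at 0. The part of these markers in the results below was not tested. In bulk samples, fewer cells of a type and less RNA per cell cannot be told apart.

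With vemurafenib, 2 repressors of the network, Mxd1 and Mxi1, were higher than with DMSO, while Mycn and another gene of the MXD family, Mxd3, were lower. Myc itself and Max did not pass the test. The same 4 genes passed in the comparison of vemurafenib with PLX7904, which used the same vemurafenib arrays, and no member passed between PLX7904 and DMSO. By limma, at a Benjamini-Hochberg adjusted p under 0.05 over 10852 genes, vemurafenib gave 2 members above DMSO and 2 below it, beside 5.43% and 5.21% of all genes tested. Against PLX7904, 2 members were again higher and 2 lower with vemurafenib, beside 6.43% and 6.87% of all genes. The median difference of the 10 members was 0.09 on the log2 scale against DMSO and -0.00 against PLX7904, where the medians over all genes were -0.05 and -0.04. When the variance was modelled without a trend on signal, 0 members passed in either comparison, and against DMSO 26 of all genes tested were higher and 17 lower. After median centring of the arrays, 792 of all genes were higher and 227 lower against DMSO, beside 589 and 565 as deposited, and Mxd1, Mxi1, Mycn and Mxd3 kept their direction.

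**Figure D1:**
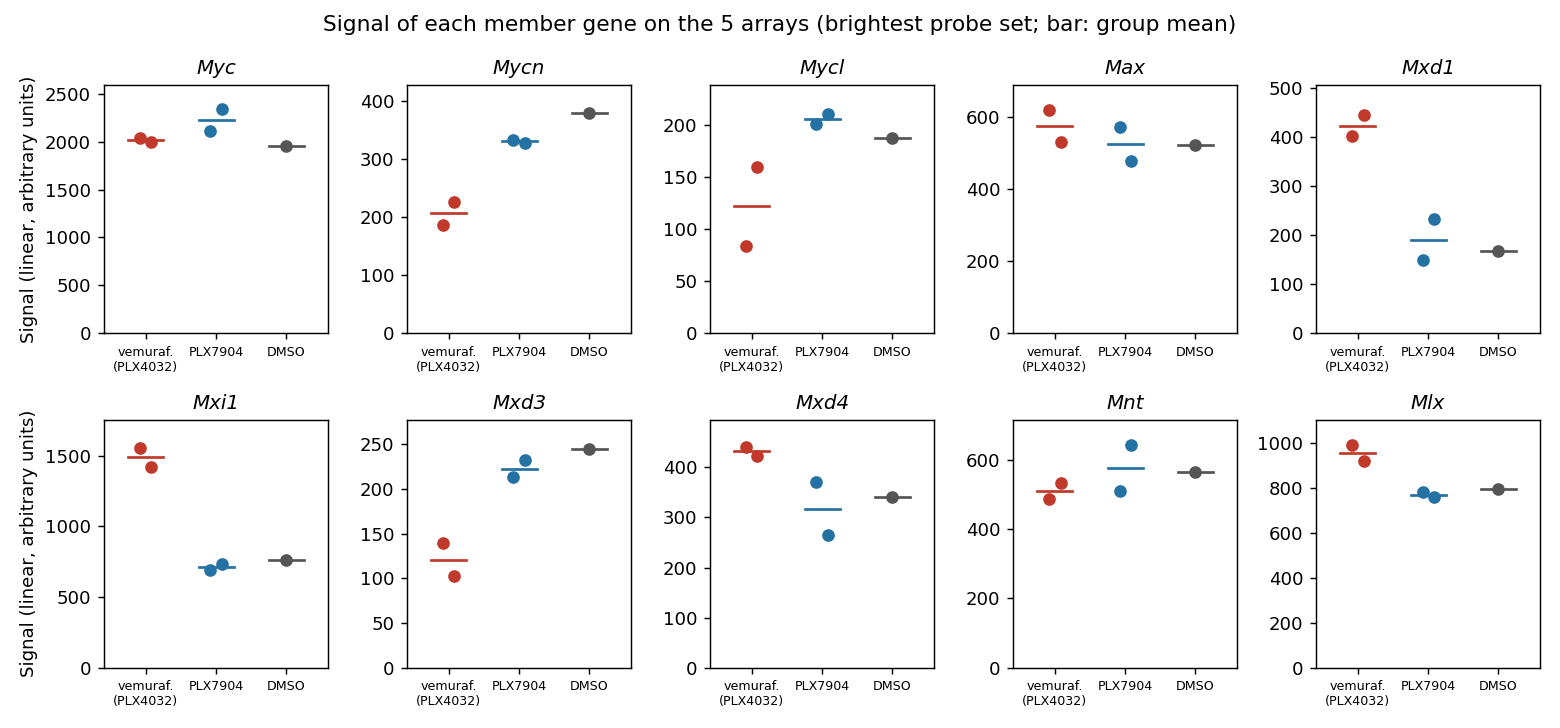
Signal on a linear scale from 0 for the brightest probe set of each of the 10 member genes, with 1 point per array and a bar at each group mean (2 vemurafenib arrays, 2 PLX7904 arrays, 1 DMSO array). Both vemurafenib arrays lie above the other 3 arrays for Mxd1, Mxi1, Mxd4 and Mlx and below them for Mycn, Mycl and Mxd3.

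The upstream sequences of the 4 genes that passed are shown because they are the members whose transcript level differed. They come from RefSeq windows of GRCm38.p6, which held an entry for 9 of the 10 members, all but Myc (Mxi1 had 3 windows), and each line gives the 250 bases before the annotated start. Coordinates are chr12:12941837-12942086 on the minus strand for Mycn, chr6:86669160-86669409 on the minus strand for Mxd1, chr13:55329732-55329981 on the minus strand for Mxd3 and chr19:53310256-53310505 on the plus strand for the first Mxi1 window. Capitals mark matches to the E2F-type motifs TTTGGCGC and TTTCGCGC on either strand.
Mycn: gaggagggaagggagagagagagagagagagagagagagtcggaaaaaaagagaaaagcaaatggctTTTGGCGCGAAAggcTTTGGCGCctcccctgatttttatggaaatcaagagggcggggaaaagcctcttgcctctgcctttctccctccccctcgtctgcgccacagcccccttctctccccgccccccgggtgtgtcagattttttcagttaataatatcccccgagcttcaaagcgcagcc
Mxd1: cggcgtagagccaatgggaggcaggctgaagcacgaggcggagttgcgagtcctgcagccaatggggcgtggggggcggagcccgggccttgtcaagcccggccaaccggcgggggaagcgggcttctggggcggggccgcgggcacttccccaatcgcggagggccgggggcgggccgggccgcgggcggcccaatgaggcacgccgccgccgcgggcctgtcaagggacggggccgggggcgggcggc
Mxd3: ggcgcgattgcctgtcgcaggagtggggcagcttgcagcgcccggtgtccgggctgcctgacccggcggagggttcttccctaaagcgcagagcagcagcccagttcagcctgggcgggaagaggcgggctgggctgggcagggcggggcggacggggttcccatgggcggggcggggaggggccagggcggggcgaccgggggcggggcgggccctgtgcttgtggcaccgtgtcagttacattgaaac
Mxi1: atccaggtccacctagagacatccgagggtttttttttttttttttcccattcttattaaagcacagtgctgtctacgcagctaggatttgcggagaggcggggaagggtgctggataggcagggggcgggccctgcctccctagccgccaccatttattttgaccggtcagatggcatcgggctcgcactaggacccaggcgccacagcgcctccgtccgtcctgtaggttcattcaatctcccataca
The Mycn window held 3 overlapping or adjacent E2F-type matches, starting 183, 179 and 168 bases before the start, the middle one on the reverse strand. None of the other 10 member windows held one, and 0.813% of all 32851 windows held at least 1 of the 2 motifs. The motifs were chosen after the sequences were seen, and a match describes these letters only.

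The E-box CACGTG, the site that MAX dimers bind, was in the windows of Max, Mxd4, Mnt and Mlx, which is 4 of the 11 member windows, against 7.15% of all windows. Each is shown with 20 bases on either side and the E-box in capitals, since these 4 members carry the network's own motif in the window searched. Coordinates are chr12:76962226-76962271 (minus strand) for Max, chr5:34187904-34187949 (minus strand) for Mxd4, chr11:74830781-74830826 (plus strand) for Mnt and chr11:101087230-101087275 (plus strand) for Mlx.
Max: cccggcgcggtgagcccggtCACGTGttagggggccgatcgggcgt
Mxd4: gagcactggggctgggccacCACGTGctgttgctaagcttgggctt
Mnt: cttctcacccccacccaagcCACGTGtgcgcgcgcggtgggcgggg
Mlx: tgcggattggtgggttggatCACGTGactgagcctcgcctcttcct
The E-box began 3 bases before the annotated start in Max, 219 in Mxd4, 123 in Mnt and 40 in Mlx. None of these 4 genes passed the test in either comparison of vemurafenib, and none of the windows of the 4 genes that passed held CACGTG. After median centring of the arrays, Mxd4 and Mlx passed against PLX7904 (limma adjusted p = 0.0166 and 0.0149). Mycl had no CACGTG in its window and did not pass either, and Myc had no window. A link between the E-box and these differences was not tested.

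Among the MYC proteins that activate transcription, Myc (chromosome 15, 1 probe set) did not pass in either comparison of vemurafenib. Its signal was 2045 and 1998 on the vemurafenib arrays, 2117 and 2340 on the PLX7904 arrays and 1957 on the DMSO array. The vemurafenib values lay between the DMSO value and both PLX7904 values. The log2 difference was 0.05 against DMSO (SE 0.10, 95% interval -0.18 to 0.27, limma adjusted p = 0.817) and -0.14 against PLX7904 (SE 0.08, interval -0.32 to 0.05, adjusted p = 0.322).

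Mycn (chromosome 12), the family member best known from neural progenitors and neuroblastoma, fell with vemurafenib. The brightest of its 3 probe sets read 187 and 226 with vemurafenib, 334 and 328 with PLX7904 and 380 with DMSO. Both vemurafenib arrays were below the other 3. Mycn was 1.83 times lower than with DMSO (log2 -0.88, SE 0.18, 95% interval -1.28 to -0.47, limma adjusted p = 0.0142) and 1.60 times lower than with PLX7904 (log2 -0.68, SE 0.15, interval -1.01 to -0.35, adjusted p = 0.0148). A dimmer Mycn probe set with a mean signal of 87.4 read 69.3 and 67.3 with vemurafenib, 103 and 117 with PLX7904 and 84.1 with DMSO, and did not pass against either group (adjusted p = 0.656 and 0.172 in the fit of all probe sets). The difference from PLX7904 also lost its call without vemurafenib replicate 1 (log2 -0.55, adjusted p = 0.0716), without PLX7904 replicate 1 (adjusted p = 0.0590) and without PLX7904 replicate 2 (adjusted p = 0.0578). Averaging all 3 Mycn probe sets gave a log2 difference of 0.0070 from DMSO, and the remaining one, below the filter with a mean signal of 26.4, read 7.72 and 44.3 with vemurafenib, 40.1 and 52.7 with PLX7904 and 6.76 with DMSO.

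Mycl (chromosome 4), the third MYC protein, did not pass in either comparison of vemurafenib. Its only probe set past the filter read 83.9 and 159 with vemurafenib, 201 and 210 with PLX7904 and 187 with DMSO. Both vemurafenib arrays were lowest, but they differed from each other by more than the second did from DMSO. The log2 difference was -0.68 from DMSO (SE 0.33, 95% interval -1.42 to 0.06, limma adjusted p = 0.233) and -0.81 from PLX7904 (SE 0.27, interval -1.41 to -0.21, adjusted p = 0.0794). Mycl passed without vemurafenib replicate 2, at log2 -1.13 from DMSO (adjusted p = 0.0113) and -1.26 from PLX7904 (adjusted p = 6.63e-04), and with the replicate number as a block against PLX7904 (adjusted p = 0.0370).

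Max (chromosome 12), the obligate partner of both activators and repressors, read 621 and 532 with vemurafenib, 573 and 480 with PLX7904 and 524 with DMSO. The groups overlapped. Its log2 difference was 0.13 from DMSO (95% interval -0.22 to 0.49, limma adjusted p = 0.649) and 0.13 from PLX7904 (interval -0.16 to 0.42, adjusted p = 0.569).

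Of the MXD repressors, Mxi1 (chromosome 19), also called Mxd2, had the smallest p of all members. Its brighter probe set read 1553 and 1423 with vemurafenib, 691 and 737 with PLX7904 and 765 with DMSO. The vemurafenib arrays lay above the other 3, and both PLX7904 arrays lay below DMSO. Mxi1 was 1.94-fold higher than with DMSO (log2 0.96, SE 0.12, 95% interval 0.69 to 1.22, limma adjusted p = 9.58e-04) and 2.08-fold higher than with PLX7904 (log2 1.06, SE 0.10, interval 0.84 to 1.27, adjusted p = 1.35e-04). By p-value it stood 109th and 46th of the 10852 genes in those comparisons. The second Mxi1 probe set, with a mean signal of 151, read 271 and 174 with vemurafenib, 131 and 120 with PLX7904 and 105 with DMSO, which put the vemurafenib arrays highest again. It differed by 1.02 and 0.77 on the log2 scale from DMSO and PLX7904 and did not pass (adjusted p = 0.0675 and 0.0768 in the fit of all probe sets).

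Mxd1 (chromosome 6), the repressor known from differentiating cells, had 2 probe sets past the filter. The brighter read 401 and 445 with vemurafenib, 149 and 232 with PLX7904 and 167 with DMSO. The other, with a mean signal of 249, read 321 and 362 with vemurafenib, 249 and 175 with PLX7904 and 193 with DMSO. In both, each vemurafenib array lay above the other 3 arrays. By the brighter probe set Mxd1 was 2.50-fold higher than with DMSO (log2 1.32, SE 0.25, 95% interval 0.77 to 1.87, limma adjusted p = 0.00854) and 2.25-fold higher than with PLX7904 (log2 1.17, SE 0.20, interval 0.72 to 1.62, adjusted p = 0.00458). The other probe set was 0.81 higher than with DMSO on the log2 scale, which missed the threshold (adjusted p = 0.0676), and 0.70 higher than with PLX7904, which passed (adjusted p = 0.0488, both in the fit of all probe sets). With its 3 probe sets averaged, Mxd1 missed the threshold in both comparisons (log2 1.41 from DMSO, adjusted p = 0.0570, and 0.93 from PLX7904, adjusted p = 0.0838).

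Mxd3 (chromosome 13), an MXD protein known from S phase of proliferating progenitor cells, went the other way. Its brightest probe set read 140 and 102 with vemurafenib, 213 and 232 with PLX7904 and 245 with DMSO. Both vemurafenib arrays were below the other 3. Mxd3 was 2.02 times lower than with DMSO (log2 -1.01, SE 0.25, 95% interval -1.57 to -0.46, limma adjusted p = 0.0277) and 1.83 times lower than with PLX7904 (log2 -0.88, SE 0.20, interval -1.33 to -0.43, adjusted p = 0.0182). A second probe set, with a mean signal of 132, read 108 and 105 with vemurafenib, 131 and 139 with PLX7904 and 154 with DMSO, so its groups had the same order, and it did not pass (log2 -0.52 and -0.33, adjusted p = 0.276 and 0.396). The third, with a mean signal of 66.7, read 56.3 and 76.5 with vemurafenib, 68.9 and 105 with PLX7904 and 46.8 with DMSO, with overlapping groups and a log2 difference from DMSO of 0.46. The call against DMSO was lost without vemurafenib replicate 2 (log2 -0.80, adjusted p = 0.0523), after quantile normalization (adjusted p = 0.0532) or cyclic loess (adjusted p = 0.0542), and with no filter (adjusted p = 0.0996). The call against PLX7904 was lost without vemurafenib replicate 2 (adjusted p = 0.0629), without PLX7904 replicate 1 (adjusted p = 0.0540) and without PLX7904 replicate 2 (adjusted p = 0.0916).

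Mxd4 (chromosome 5), also a MAX-binding repressor, had 4 probe sets, all past the filter. The brightest read 441 and 422 with vemurafenib, 370 and 264 with PLX7904 and 340 with DMSO, with both vemurafenib arrays highest. Its log2 difference was 0.34 from DMSO (95% interval -0.10 to 0.79, limma adjusted p = 0.319) and 0.46 from PLX7904 (interval 0.10 to 0.82, adjusted p = 0.0964). The second, with a mean signal of 171, read 222 and 190 with vemurafenib, 154 and 152 with PLX7904 and 153 with DMSO, the same order. The 2 dimmer ones ran the other way against DMSO (log2 -0.10 and -0.90, adjusted p = 0.927 and 0.317). The difference from PLX7904 passed without PLX7904 replicate 1 (log2 0.70, adjusted p = 0.0231).

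**Figure D2:**
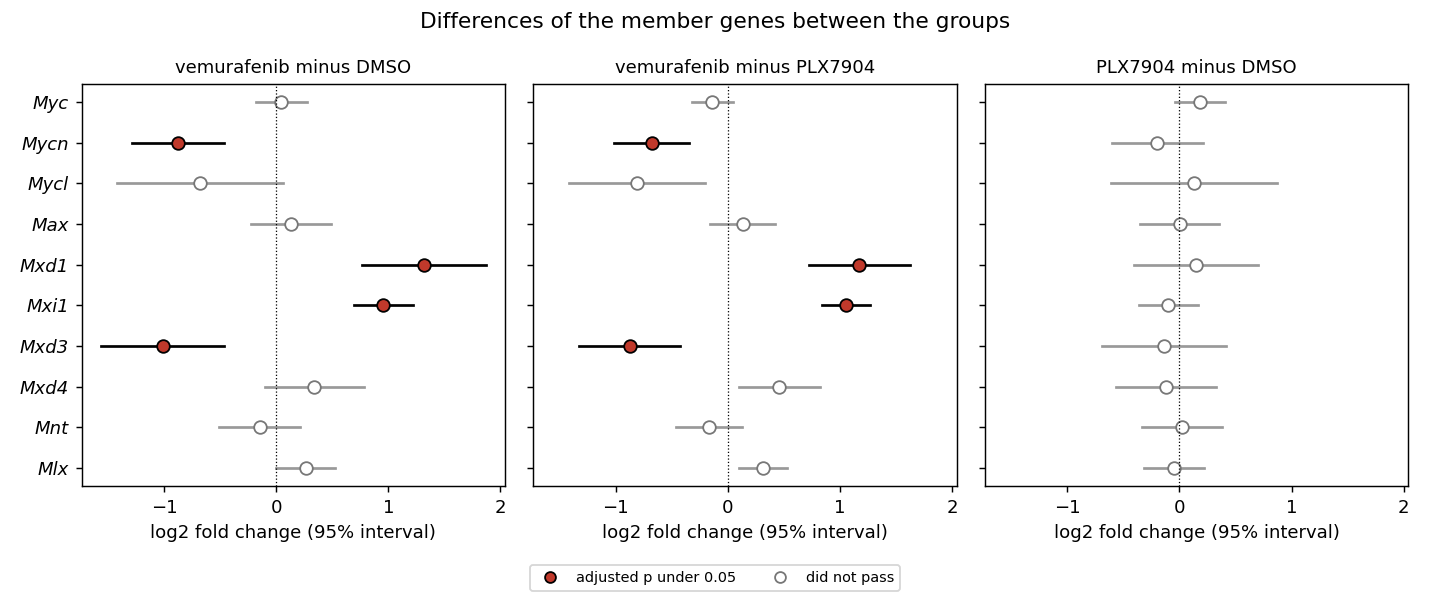
Log2 fold change of each member gene with its 95% interval, for vemurafenib minus DMSO, vemurafenib minus PLX7904 and PLX7904 minus DMSO. Filled points passed at an adjusted p under 0.05: Mxd1 and Mxi1 above 0 and Mycn and Mxd3 below 0 in both comparisons of vemurafenib, and none for PLX7904 minus DMSO.

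Mnt (chromosome 11), a repressor found in most cell types, read 486 and 533 with vemurafenib, 511 and 643 with PLX7904 and 564 with DMSO. The vemurafenib and PLX7904 arrays overlapped, and both vemurafenib arrays were below DMSO. The log2 difference was -0.15 from DMSO (95% interval -0.51 to 0.21, limma adjusted p = 0.612) and -0.17 from PLX7904 (interval -0.46 to 0.12, adjusted p = 0.454). Its sign against DMSO turned with median centring of the arrays (0.0024).

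Mlx (chromosome 11), the partner of MondoA and ChREBP, read 991 and 921 with vemurafenib, 780 and 758 with PLX7904 and 796 with DMSO on its brighter probe set. Its other probe set, with a mean signal of 467, read 506 and 579 with vemurafenib, 410 and 425 with PLX7904 and 441 with DMSO. Both placed the vemurafenib arrays above the other 3 arrays. The log2 difference of the brighter one was 0.26 from DMSO (95% interval -0.00 to 0.53, limma adjusted p = 0.199) and 0.31 from PLX7904 (interval 0.10 to 0.53, adjusted p = 0.0620), and neither passed. Median centring of the arrays moved the difference from PLX7904 to 0.46 (adjusted p = 0.0149).

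In the comparison of the compounds, both vemurafenib arrays lay above both PLX7904 arrays for Mxd1, Mxi1, Mxd4 and Mlx, and 23.8% of all genes tested had that order. Both lay below for Myc, Mycn, Mycl and Mxd3, and 32.2% of all genes had that order. The compounds overlapped for Max and Mnt.

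No member passed between PLX7904 and DMSO. Log2 differences of PLX7904 from DMSO ran between -0.20 for Mycn and 0.19 for Myc, and 0 members passed, as did 0% of the 10852 genes by limma (6.65% had an unadjusted p under 0.05). The 95% interval was -0.04 to 0.41 for Myc, -0.36 to 0.17 for Mxi1, -0.60 to 0.21 for Mycn, -0.40 to 0.70 for Mxd1, -0.69 to 0.41 for Mxd3 and, the widest of the 10, -0.61 to 0.87 for Mycl. Only 1 DMSO array stood behind these values, and the p that misses the threshold does not show that the groups are alike.

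Over the 19 probe sets past the filter, fitted together with 19755 probe sets, those that passed were the brightest ones of Mxd1, Mxi1, Mycn and Mxd3, plus the second Mxd1 probe set against PLX7904. In that fit vemurafenib gave 3.74% of all probe sets above DMSO and 3.41% below it, and 4.63% and 4.54% against PLX7904. For Mycn, Mxd1, Mxi1 and Mlx, all probe sets past the filter had 1 sign in both comparisons, whereas those of Mxd3 and Mxd4 differed in sign against DMSO. The 5 probe sets below the filter had mean signals between 13.8 and 30.5 and were not tested. The dim Mxd1 one read 85.5 and 25.8 with vemurafenib, 42.3 and 12.3 with PLX7904 and 8.52 with DMSO.

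**Figure D3:**
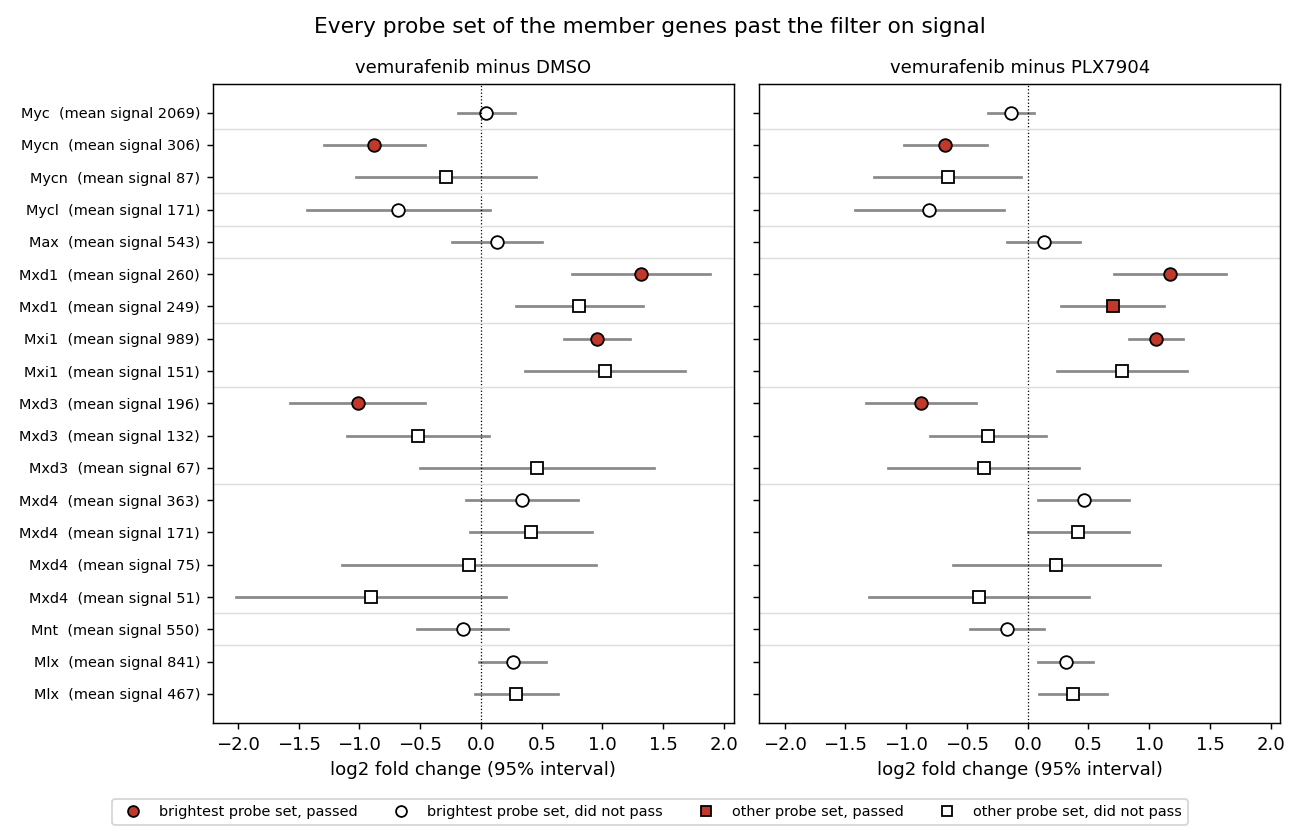
Log2 fold change with its 95% interval for every member probe set past the filter, ordered by gene and labelled with its mean signal, for vemurafenib minus DMSO and vemurafenib minus PLX7904. Circles are the brightest probe set of a gene and squares the others. Of the squares, only the Mxd1 probe set with a mean signal of 249 is filled, against PLX7904.

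Differences between these arrays depended on signal. With the tested genes split by signal into 4 groups of 2713, the median log2 difference of vemurafenib from DMSO was -0.18 in the dimmest group, then -0.11, -0.05 and, in the brightest, 0.05. Mycn, with a mean signal of 306, and Mxd1, with 260, lay in the second of these groups, Mxd3, with 196, in the dimmest, and Mxi1, with 989, in the third. The differences of all 4 genes were larger in size than these medians, and the part of this shift in them was not tested.

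The genes whose pattern over the 5 arrays was most like that of a called member were found by the root mean square difference of their centred log2 values. Nearest to Mxd1 were Plau, the urokinase plasminogen activator (0.0788), Cdkn1a, the p21 inhibitor of cyclin-dependent kinases (0.0965), and Prl8a9, a prolactin family gene (0.116). Nearest to Mxi1 were Tnfrsf23 (0.0597), Pitpnc1 (0.0607) and Elovl4, a fatty acid elongase (0.0677). Elovl4 read 2589 and 2319 with vemurafenib, 1125 and 1130 with PLX7904 and 1123 with DMSO. Its vemurafenib arrays stood above the other 3, as those of Mxi1 did. Both PLX7904 arrays of Elovl4 lay just above DMSO, whereas those of Mxi1 lay below it. Nearest to Mycn were Gas6, a ligand of TAM receptors (0.0415), Dpyd, which degrades pyrimidines (0.0440), and Cep68 (0.0494). Gas6 read 465 and 536 with vemurafenib, 758 and 758 with PLX7904 and 892 with DMSO. Angel1 (0.0683), Ankdd1b (0.0771) and Pcdh18 (0.0784) were nearest to Mxd3. With 5 arrays in 3 groups many genes share a pattern, and these distances describe likeness only.

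The next lists hold genes for proteins that the network works with. Among all genes, 5.43% passed above DMSO and 5.21% below it. Against PLX7904, 6.43% passed above and 6.87% below. The other partners of MAX and MLX on the array were Mga, which differed by -0.16 on the log2 scale from DMSO and -0.15 from PLX7904, and Mlxip, which differed by -0.05 and 0.09, and neither passed. Mlxipl, with a mean signal of 19.3, was below the filter. Of the 10 SIN3-HDAC corepressor genes tested, 1 was higher and 1 lower with vemurafenib in each comparison, and the list's median was -0.02 against DMSO and -0.03 against PLX7904. Sap30, a SIN3 complex subunit, read 1625 and 1841 with vemurafenib, 2548 and 2543 with PLX7904 and 2380 with DMSO. Its vemurafenib arrays were lowest, with log2 differences of -0.46 and -0.56 from DMSO and PLX7904. Sin3b, the scaffold that MXD proteins bind, was 0.50 and 0.36 higher by a probe set of a type that may match several transcripts, and -0.19 and 0.05 by the brightest probe set outside that type, which did not pass. The lower count against DMSO became 0 without vemurafenib replicate 1, and the higher count against PLX7904 became 0 without vemurafenib replicate 1 or PLX7904 replicate 2.

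The same shares of all genes, 5.43% and 5.21% against DMSO and 6.43% and 6.87% against PLX7904, stand beside the next counts. Among 15 coactivator and interactor genes tested, vemurafenib gave 2 above DMSO and 0 below it (median -0.03). Against PLX7904, 3 were higher and 0 lower (median 0.02). Without vemurafenib replicate 2, 1 was lower than with PLX7904. Pim1, a kinase that phosphorylates MYC and histone H3 at MYC sites, read 1079 and 1155 with vemurafenib, 605 and 566 with PLX7904 and 643 with DMSO. Its vemurafenib arrays stood well above the others, 1.73-fold over DMSO (limma adjusted p = 0.00336) and 1.90-fold over PLX7904 (adjusted p = 3.29e-04). Cdk9, the elongation kinase that MYC recruits, rose by 0.41 and 0.37 on the log2 scale, and Ep400, a chromatin remodeller, by 0.38 against PLX7904. With all probe sets averaged, Cdk9 did not pass against DMSO (log2 0.34) but did against PLX7904 (log2 0.35). That average ended the Ep400 call (log2 0.30), while its brightest probe set outside the type that may match several transcripts passed (log2 0.51). Of 15 genes for MYC protein turnover, 0 passed against DMSO, and against PLX7904 only Skp2, a ubiquitin ligase subunit, was lower (log2 -0.27), with medians of -0.11 and -0.09. The Skp2 count became 0 without vemurafenib replicate 1, vemurafenib replicate 2 or PLX7904 replicate 2.

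Of 30 tested genes that MYC is known to induce for ribosome production, vemurafenib gave 1 above DMSO and 4 below it, and 0 above PLX7904 and 4 below it. The shares over all genes were 5.43% above and 5.21% below DMSO, and 6.43% above and 6.87% below PLX7904. The list's median was -0.08 in both comparisons, where the medians over all genes were -0.05 and -0.04. Most of these genes lay in the brightest of the 4 signal groups, whose medians were 0.05 against DMSO and 0.01 against PLX7904. The part of signal in the list's medians was not tested. The 4 lower became 2 in both comparisons without vemurafenib replicate 1 or replicate 2, and 2 against PLX7904 without PLX7904 replicate 1 or replicate 2. Median centring left 1 in each, and no filter left 2. Tcof1, which supports ribosomal RNA transcription, read 579 and 515 with vemurafenib, 785 and 926 with PLX7904 and 858 with DMSO, and its vemurafenib arrays were lowest (log2 -0.65 and -0.64 from DMSO and PLX7904). Rrp12, a ribosome assembly factor, fell by 0.53 and 0.54 in those comparisons. Ddx21, an RNA helicase of the nucleolus, was also lower than with DMSO (log2 -0.41). With its 2 probe sets averaged, that difference was -0.04 and did not pass. Polr1b, a subunit of RNA polymerase I, was lower than with DMSO (log2 -0.40) and than with PLX7904 (log2 -0.31). Npm1, nucleophosmin, was 0.24 higher than with DMSO, a call that ended after quantile normalization (0.05) and cyclic loess (0.06).

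Of 28 MYC-induced genes of metabolism and growth, vemurafenib gave 1 above DMSO and 1 below it (median -0.04). Against PLX7904, 1 was higher and 4 lower (median -0.09). Shares over all genes were again 5.43% above and 5.21% below DMSO, and 6.43% above and 6.87% below PLX7904. The 1 below DMSO became 0 without vemurafenib replicate 1 or with median centring and 4 with quantile normalization or cyclic loess, and the 1 above it became 2 without vemurafenib replicate 2, without either PLX7904 array and with the replicate block. The 4 below PLX7904 became 0 without vemurafenib replicate 1 or with median centring, and 2 without vemurafenib replicate 2, without PLX7904 replicate 1 or with no filter, and the 1 above it became 0 without vemurafenib replicate 1 or PLX7904 replicate 2. Odc1, ornithine decarboxylase of polyamine synthesis and a classical MYC target, read 28290 and 26747 with vemurafenib, 24117 and 22676 with PLX7904 and 19591 with DMSO. Its vemurafenib arrays were highest, 1.40-fold over DMSO (limma adjusted p = 0.00148) and 0.23 over PLX7904 on the log2 scale. Those with a lower call included Slc7a5, a transporter of large neutral amino acids, in both comparisons (log2 -0.39 and -0.29), and, against PLX7904, its partner Slc3a2 (log2 -0.29) and the cell cycle factor E2f1 (log2 -0.52).

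Among 15 genes that MYC is known to repress, vemurafenib gave 3 above DMSO and 1 below it, while the median was -0.24. Against PLX7904, 4 were higher and 3 lower, while the median was -0.09. Of all genes, 5.43% were above and 5.21% below DMSO, and 6.43% above and 6.87% below PLX7904. The 3 above DMSO became 5 without either PLX7904 array or with the replicate block, and the 1 below it became 2 without vemurafenib replicate 2. The 3 below PLX7904 became 1 without vemurafenib replicate 1, without PLX7904 replicate 1 or with no filter. Cdkn1a read 2892 and 2825 with vemurafenib, 1108 and 1444 with PLX7904 and 1137 with DMSO. It was 2.51-fold higher than with DMSO (limma adjusted p = 3.42e-04) and 2.26-fold higher than with PLX7904 (adjusted p = 1.86e-04). Ndrg1, a stress and differentiation gene, was 1.82-fold and 1.96-fold higher, and Klf6, a zinc finger factor, 1.48-fold and 1.66-fold. Thbs1, thrombospondin 1, ran against these and read 1253 and 1282 with vemurafenib, 2086 and 2226 with PLX7904 and 2775 with DMSO, which was 2.19 times lower than with DMSO and 1.70 times lower than with PLX7904. Clu (log2 -0.78) and Gas1 (log2 -0.69) were lower than with PLX7904. With all probe sets averaged, none of these 3 lower genes passed against PLX7904 (log2 -0.42 for Thbs1, -0.39 for Clu, -0.60 for Gas1). The Klf6 call against DMSO was also lost with all probe sets averaged (log2 0.27). It was lost as well by the brightest Klf6 probe set outside the type that may match several transcripts (log2 0.37).

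The thioredoxin-interacting gene Txnip and its relative Arrdc4, which MLX and MondoA are known to induce, differed by 0.13 and -0.13 on the log2 scale from DMSO and by -0.14 and -0.07 from PLX7904, and neither passed. Of 8 other E-box factors tested, 0 passed against DMSO, and Tfap4, a factor that MYC induces in human cells, was 1.78 times lower than with PLX7904 (limma adjusted p = 0.0125). Tfap4 read 133 and 150 with vemurafenib, 275 and 234 with PLX7904 and 219 with DMSO, with both vemurafenib arrays lowest. Its call was lost without PLX7904 replicate 1, and without PLX7904 replicate 2 the list had 2 higher genes against PLX7904. Of 10 genes for factors linked to the control of Myc transcription, 0 were higher and 2 lower in each comparison of vemurafenib. Against DMSO the 2 became 0 without vemurafenib replicate 1, with median centring or with all probe sets averaged. Against PLX7904 they became 1 without vemurafenib replicate 1, without vemurafenib replicate 2, without PLX7904 replicate 2 or with median centring, and 0 with all probe sets averaged. Tcf7l2, a WNT pathway factor, read 63.7 and 74.7 with vemurafenib, 143 and 167 with PLX7904 and 157 with DMSO, which was 2.21 times lower than with DMSO and 2.18 times lower than with PLX7904. Ctcf, a chromatin insulator protein, fell by 0.42 and 0.34 on the log2 scale. In all 10 of these lists, 0 genes passed between PLX7904 and DMSO by limma. The lists gave 42 calls, of which 0 held without the trend on signal and 18 held when all probe sets of a gene were averaged.

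**Figure D4:**
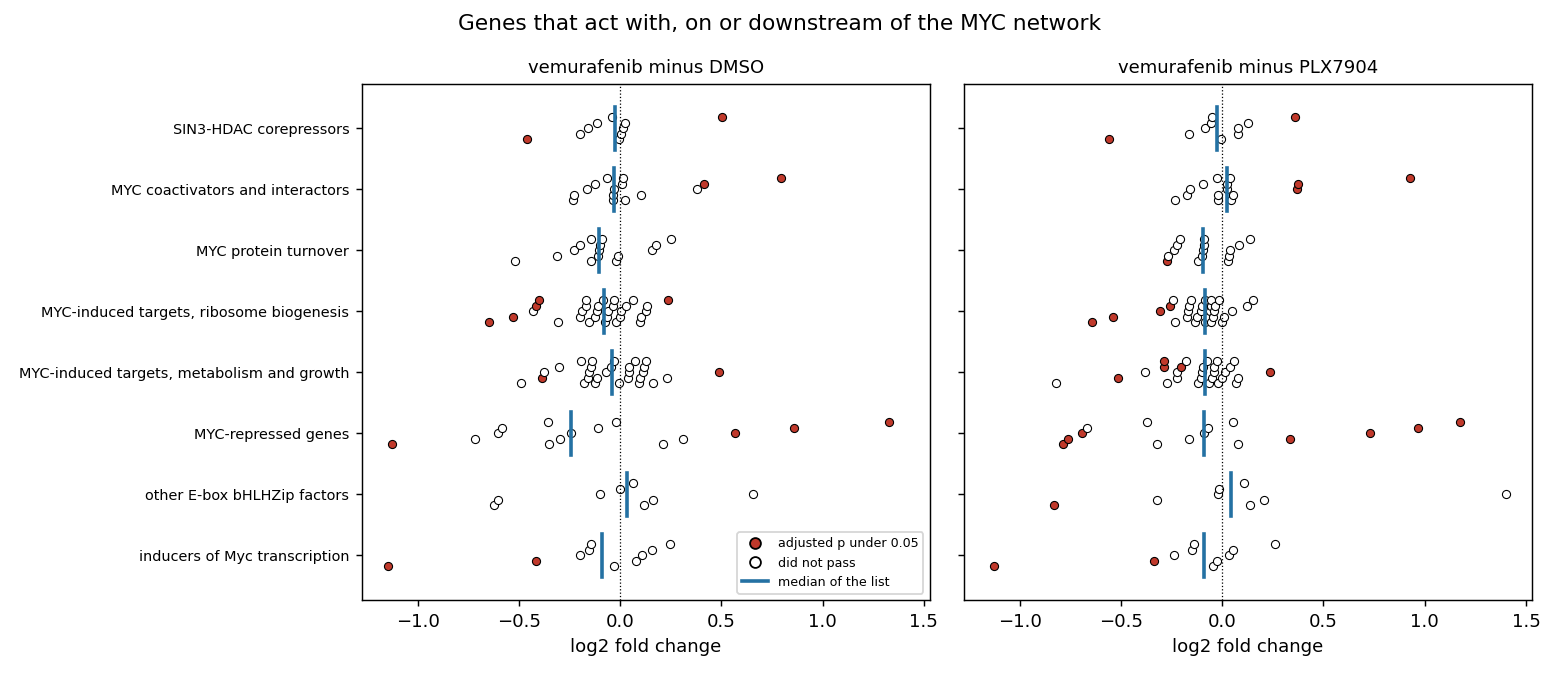
Log2 fold change of each tested gene in 8 lists of genes that act with, on or downstream of the network, for vemurafenib minus DMSO and vemurafenib minus PLX7904. Filled points passed at an adjusted p under 0.05 and blue bars are list medians, which run from -0.24 to 0.03 against DMSO, with Cdkn1a at 1.33 and Tcf7l2 at -1.15 as the farthest filled points.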

How the data were processed

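RNA of 5 arrays (2 vemurafenib, 2 PLX7904, 1 DMSO) was measured with Affymetrix 3' expression chips. The deposited values are 1 linear signal intensity for each of 45101 probe sets. Per the submitters' processing notes they are MAS5 values, of a version not given in the sources used here. MAS5 scales whole arrays, so differences that depend on signal remain, and dim probe sets vary widely. Array medians were 44.1 to 51.9, and replicate arrays correlated at 0.990 (vemurafenib) and 0.989 (PLX7904). The number of arrays limits the precision: the median half-width of a 95% interval on a log2 difference was 0.31 against DMSO and 0.25 between the compounds. The labels give 0.2% DMSO for the vehicle, while 2.4 µL of 5 mM stock in 12 mL of medium is 0.02%. These values disagree, so the vehicle level of the control relative to the treated cells is unknown in each comparison with DMSO.

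Platform annotation gave 34945 probe sets with 1 symbol, 932 with several and 9160 with none, besides 64 control probe sets. Of these symbols, 34741 identifiers matched the GRCm38.p6 gene table, and 0 symbols were updated. A pseudocount of 3.34, the 10th percentile of the table, was added before taking log2, a scale that understates the change of dim genes. Each gene took its brightest probe set, and 10852 of 18193 genes were tested, those whose mean reached the table's median of 47.4. All 5 arrays were fitted with 3 group means by lmFit and trended eBayes of limma 3.58.1 under R 4.3.3 (2 residual and 8.27 prior degrees of freedom). P-values are two-sided and adjusted by Benjamini-Hochberg over all genes in a comparison, with a threshold of 0.05. A second fit took the 19755 probe sets past the filter. Motifs and figures were made in Python 3.11.15 with matplotlib 3.10.9.

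The members and lists were chosen with earlier results of these data known. The text names all members, up to 3 called genes at either end of each list per comparison (every gene of a list of up to 3), and the 3 genes nearest in pattern to each called member. Both comparisons with DMSO share 1 array. Some listed genes were not analysed here. The tested alternatives were other pseudocounts, filters, normalizations, variance models, probe-set rules, thresholds and samples, 19 in all.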

Additional observations from a re-analysis of the deposited data

How the results depend on the processing

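The calls of Mxi1 held under 17 of 18 alternatives against DMSO and 18 of 19 against PLX7904, those of Mxd1 under 15 of 17 and 16 of 18, those of Mycn under 13 of 17 and 12 of 18, and those of Mxd3 under 10 of 17 and 11 of 18. Against DMSO, the 2 members higher with vemurafenib became 1 with the filter at the 75th percentile, 0 without an intensity trend and 1 when all probe sets were averaged. The 2 lower became 0 with no filter, with the filter at the 75th percentile, without the trend, with the mean of all probe sets and at an adjusted p under 0.01, and 1 with quantile normalization or cyclic loess. Against PLX7904, the 2 higher became 4 with median centring and at an adjusted p under 0.10, 0 without the trend and 1 when all probe sets were averaged. The 2 lower became 1 with no filter, and 0 with the filter at the 75th percentile, without the trend, with the mean of all probe sets and at an adjusted p under 0.01, and between 0 and 2 with 1 array left out: 1 without vemurafenib replicate 1, and 0 without PLX7904 replicate 1 or replicate 2. Without vemurafenib replicate 2, the 2 lower members in both comparisons were Mycn and Mycl. The stricter filter stood at a signal of 386, which Mycn (mean 306), Mxd1 (260) and Mxd3 (196) did not reach. These members were left out under it, so their calls were not retested there. For the other settings the cause was not tested.

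Signs turned, when all probe sets were averaged, for Mycn (0.0070) and Mxd4 (-0.063) against DMSO, for Mnt against PLX7904 (0.46), and for PLX7904 minus DMSO in Mycn (0.82), Mycl (-0.31), Mxd3 (0.16), Mxi1 (0.075) and Mnt (-0.69). They turned with median centring for Mnt against DMSO (0.0024) and Myc against PLX7904 (0.0075). With 1 PLX7904 array left out, PLX7904 minus DMSO ran from -0.13 to 0.13 for Max, -0.16 to 0.46 for Mxd1, -0.36 to 0.12 for Mxd4 and -0.14 to 0.19 for Mnt. Median centring shifted the median of all genes from -0.05 to 0.10 against DMSO, with 792 genes higher and 227 lower there (77.7% higher, against 51% before), and to 0.11 against PLX7904, with 1225 higher and 307 lower (80%, against 48.4%). The differences of Mxd1, Mxi1, Mycn and Mxd3 from DMSO and PLX7904 kept their sign under quantile normalization, cyclic loess and median centring, though Mxd3 lost its call against DMSO under the first and second of these.

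The replicate numbers of the labels did not pair the arrays (correlation of the replicate differences of the compounds -0.0071). With the replicate block, Mycl passed against PLX7904 (-0.81, adjusted p = 0.0370), the members' counts of calls stayed within 1.5 times, and PLX7904 minus DMSO turned sign in Mycl (-0.11), Mxd1 (-0.045), Mxd4 (0.017) and Mnt (-0.092). Over all genes the block gave 621 higher and 590 lower against DMSO and 756 and 827 against PLX7904. Of 740 list counts under the alternatives, 136 moved by over 1.5 times. Every probe set of Myc and Mlx is of a type that can match several transcripts, so neither was tested without those.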

Other observations

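Prl8a9, one of the genes nearest to Mxd1, read 2831 and 2819 with vemurafenib, 1109 and 1361 with PLX7904 and 1135 with DMSO. Cdkn1a read 2892 and 2825 with vemurafenib, 1108 and 1444 with PLX7904 and 1137 with DMSO, and the 5 arrays had the same order in both genes.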
